A study of Mus musculus with 10 samples.

Results

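The genes described here are 46 genes of S phase and mitosis: the cyclins, kinases, helicase subunits, nucleotide enzymes, checkpoint proteins and spindle proteins that a cell makes when it copies its DNA and divides. They were picked by symbol from a list of names and not by a threshold on values, but the list itself was drawn up with earlier results of these data known. All 46 were found among the 24358 gene symbols of the count tables, and all 46 had at least 1 count in each of the 10 libraries. RNA was sequenced from 10 biopsies of full-thickness mouse skin of the back, 1 lesional and 1 uninvolved from each of 5 mice. All 5 mice were on a C57Bl/6 background, were 10 or 14 weeks old (the sources used here do not tie age to mouse) and carried an interleukin-17C (IL-17C) transgene, so that no library comes from a mouse without the transgene. The libraries labelled IL-17C+KO came from mice 2392 and 2465, in which, according to the title of the series, interleukin-6 (Il6) was knocked out in addition. Those labelled IL-17C+ came from mice 2237, 2275 and 2296. The labels do not name the promoter of the transgene or the deleted part of Il6.

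In the libraries labelled IL-17C+KO, Il6 had 315 and 300 counts in lesional skin and 71 and 55 counts in uninvolved skin. Libraries labelled IL-17C+ had 26, 18 and 69 counts of Il6 in lesional skin and 9, 4 and 6 in uninvolved skin. Counts of Il6 were thus higher, not lower, in the libraries labelled IL-17C+KO. With the deleted part unknown, they cannot check the label, and genotype is given below as labelled. The libraries held 21056850 to 31072491 counts, and 3 counts, the most that a gene listed at 0 could plausibly hide, correspond to 0.0965 to 0.142 CPM (counts scaled to library size). Here and below, values of the 2 mice labelled IL-17C+KO are given in the order 2392 and 2465, and those of the 3 IL-17C+ mice in the order 2237, 2275 and 2296.

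Dividing cells switch these genes on in waves. E2F factors drive the genes of origin licensing, DNA replication and nucleotide supply as cells enter S phase, and a later wave, in which Foxm1 takes part, covers the genes of the G2 phase and mitosis. In normal epidermis most dividing cells lie in the basal layer, and in growing (anagen) hair follicles the matrix at the base of the follicle divides rapidly. Thickened epidermis with more dividing keratinocytes is a hallmark of psoriasis.

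Summed over the 46 genes, the level was higher in lesional than in uninvolved skin in 4 of the 5 mice. In the mice labelled IL-17C+KO the sum was 1494 and 2052 CPM in lesional skin, against 841 and 588 CPM in uninvolved skin, which is 1.78-fold and 3.49-fold higher. In IL-17C+ mice it was 1579, 1519.9 and 1672 CPM in lesional skin, against 2085, 719 and 1143 CPM in uninvolved skin. Mice 2275 and 2296 were 2.11-fold and 1.46-fold higher in lesional skin, whereas mouse 2237 had a ratio of 0.757. Lesional sums varied little in IL-17C+ mice (1590 ± 76.8 CPM, SD, n = 3), and uninvolved sums varied widely (1316 ± 699 CPM, SD, n = 3). In these whole biopsies, fewer cells of a type and less RNA per cell cannot be told apart.

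**Figure D1:**
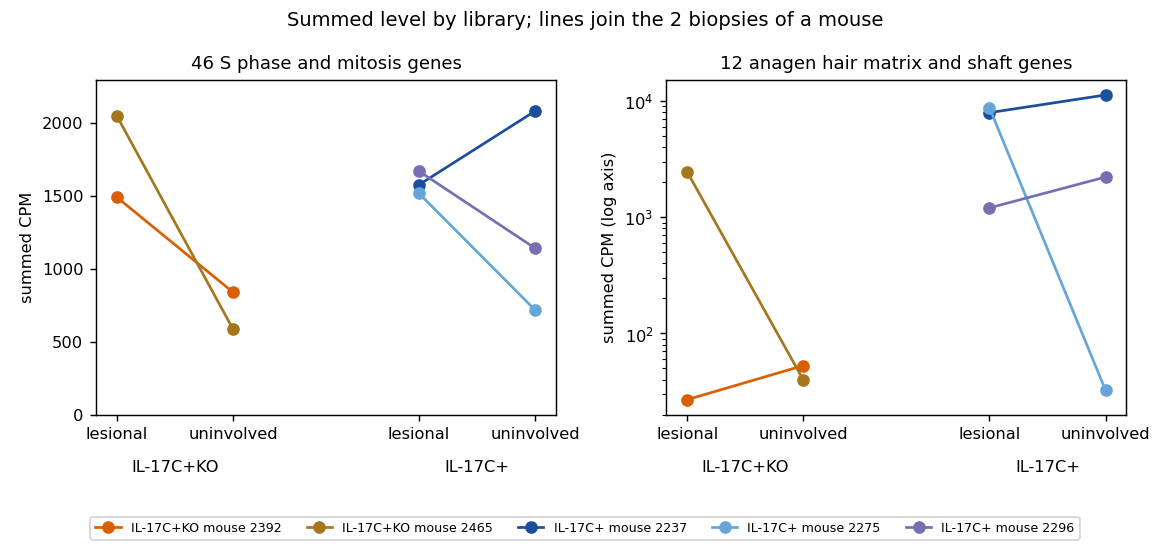
Summed CPM of the 46 S phase and mitosis genes (left, linear axis from 0) and of 12 anagen hair genes (right, log axis) in each library; points are libraries and lines join the lesional and the uninvolved biopsy of a mouse. In 4 of the 5 mice the left line is higher in lesional skin, and uninvolved skin of mouse 2237 has the highest sum of all 10 libraries (2085 CPM).

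The promoters of 8 members are shown because they hold, in different combinations, the elements known from the S phase and mitosis waves, and because 7 of them were higher in lesional skin of at least 4 mice while Ttk was higher in 3. Each line gives the 140 bases before the table's transcription start, 5′ to 3′ on the gene's strand, from RefSeq (GRCm38.p6). Capitals mark the letters of 3 searched elements. These are the cell cycle homology region (CHR, searched as TTTGAA or TTCGAA), the CCAAT box (CCAAT) and the E2F site (TTTCCCGC, TTTGGCGC, TTTCGCGC or TTTGCCGC), each on either strand, so that TTCAAA and ATTGG are matches too.
Cdc20 (chr4:118437344-118437483, minus strand): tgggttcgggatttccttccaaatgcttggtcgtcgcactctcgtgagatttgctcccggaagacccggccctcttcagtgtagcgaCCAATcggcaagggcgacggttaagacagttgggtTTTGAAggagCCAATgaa
Cdk1 (chr10:69352913-69353052, minus strand): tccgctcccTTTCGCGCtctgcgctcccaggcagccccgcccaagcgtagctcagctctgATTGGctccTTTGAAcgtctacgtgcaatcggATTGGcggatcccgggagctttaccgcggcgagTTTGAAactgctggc
Top2a (chr11:99024190-99024329, minus strand): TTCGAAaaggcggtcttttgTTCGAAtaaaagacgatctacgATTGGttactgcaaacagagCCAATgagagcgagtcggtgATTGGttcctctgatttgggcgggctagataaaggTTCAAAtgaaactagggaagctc
Mki67 (chr7:135716380-135716519, minus strand): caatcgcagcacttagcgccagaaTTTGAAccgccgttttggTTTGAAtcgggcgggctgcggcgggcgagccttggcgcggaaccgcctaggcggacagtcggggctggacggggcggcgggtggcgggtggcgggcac
Plk1 (chr7:122159295-122159434, plus strand): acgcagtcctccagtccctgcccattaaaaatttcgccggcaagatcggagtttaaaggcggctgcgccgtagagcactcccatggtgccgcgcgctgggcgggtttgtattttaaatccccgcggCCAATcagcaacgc
Mcm6 (chr1:128359706-128359845, minus strand): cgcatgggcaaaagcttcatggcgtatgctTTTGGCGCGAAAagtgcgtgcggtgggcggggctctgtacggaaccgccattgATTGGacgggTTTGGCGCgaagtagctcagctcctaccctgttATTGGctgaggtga
Mcm3 (chr1:20820313-20820452, minus strand): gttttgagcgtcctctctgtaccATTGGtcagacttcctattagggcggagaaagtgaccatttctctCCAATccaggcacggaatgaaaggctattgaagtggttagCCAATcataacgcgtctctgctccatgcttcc
Ttk (chr9:83834549-83834688, plus strand): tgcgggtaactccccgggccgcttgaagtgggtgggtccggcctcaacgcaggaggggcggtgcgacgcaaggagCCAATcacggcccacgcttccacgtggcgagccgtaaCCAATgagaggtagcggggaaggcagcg

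Cdc20, which switches on the anaphase-promoting complex, and Cdk1, the kinase that drives entry into mitosis, have a CHR close to the start with CCAAT boxes nearby, and Cdk1 has an E2F site as well. Top2a, which untangles chromosomes, has 3 CHR and 3 CCAAT matches in the printed stretch. In Mki67, which encodes the proliferation marker Ki-67, both CHR matches lie farther upstream. Mcm6, a helicase subunit, has 3 E2F matches, of which the leftmost pair overlap on opposite strands. The table of promoters held 37 of the 46 members, 2 of them with 2 windows, each of 250 bases before and 50 after the start. It did not hold Ccna2, Ccne2, Foxm1, Cdc25c, Aurkb, Kif20a, Tpx2, Gins2 or Mcm4. A CHR was found in 20 of the 37 (54.05%), against 21.66% of the 27025 genes in the table and 16.69% of the 12041 of them that were tested here. A CCAAT box was found in 28 (75.68%, against 41.06% and 42.02%), and both elements in 20 (54.05%, against 9.65% and 8.02%). An E2F site was found in 7 members (18.92%, against 2.6% and 4.09%).

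By role, a CHR was found in 5 of 6 genes of the spindle checkpoint and anaphase-promoting complex, 6 of 8 of the spindle, kinetochore and cytokinesis, 4 of 6 mitotic kinases, cyclins and phosphatase, and 3 of 9 genes of origin licensing and the replication fork. None of the 4 nucleotide supply genes had one. E2F sites were found in 6 of the 9 licensing and fork genes. With only the bases before the start searched, a CHR was found in 12 members. Plk1, a mitotic kinase, and Ttk, a kinase of the spindle checkpoint whose level did not follow the other members (below), each have a CCAAT match in the printed stretch and a CHR match after the start, outside it. A match is a run of letters, and binding was not measured.

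Levels between genes are compared per length, with the deposited FPKM, which is scaled to transcript length and library size. Averaged over the 10 libraries, Pcna, the clamp that holds the replication polymerases on DNA, had the highest level of the 46 at 91.2 FPKM (range 55.2 to 162 FPKM). It was followed by Ube2c, the enzyme that hands ubiquitin to the anaphase-promoting complex (33.7 FPKM), and Birc5, a subunit of the chromosomal passenger complex also known as survivin (24.2 FPKM). Cdc6, which loads the helicase onto origins, was lowest at 0.964 FPKM. Cenpf and Cenpe, large kinetochore proteins, averaged 1.38 and 1.52 FPKM. Ttk lay between 3.78 and 5.86 FPKM in all 10 libraries.

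The first comparison asked how lesional skin differed from uninvolved skin in the mice labelled IL-17C+KO. All 46 members had a positive log2 change (50.2% of the 16083 genes tested did), with a median of 1.40 and a range of 0.27 to 2.07, against a median of 0.00 over all genes. Every member was higher in both lesional libraries than in both uninvolved ones, which was so for 26.5% of all genes. No member passed the false discovery rate (FDR) of 0.05 over all genes in edgeR's quasi-likelihood test (smallest adjusted p = 0.224, Tpx2), and 2 of all 16083 genes did (0.0124%). At an unadjusted p under 0.05, 30 members were higher, against 6.16% of all genes, and 0 were lower, against 7.31% of all genes. Leaving out either mouse leaves 1 mouse labelled IL-17C+KO, which is then assumed to vary like the IL-17C+ mice. The p values of such a fit rest on that assumption. The members' change was also larger in mouse 2465 (median log2 difference 1.86) than in mouse 2392 (0.96), so its size depended on the mouse kept. Without mouse 2465 all 46 had positive changes with a median of 0.97, and 0 members and 2.13% of all genes were higher at that unadjusted p. Without mouse 2392 the median was 1.87, and 30 members and 5.66% of all genes were. With DESeq2 19 members passed the FDR, as did 7.48% of all genes.

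In IL-17C+ mice the same comparison gave smaller and less even values. Of the 46 members 43 had a positive log2 change (48.5% of all genes), with a median of 0.49 and a range of -0.24 to 1.15, against a median of -0.02 over all genes. None passed the FDR (smallest adjusted p = 0.745, Plk1), nor did any of the 16083 genes in edgeR (0%), where DESeq2 called 247 genes and no member. Plk1, Foxm1 and Cenpe were higher at an unadjusted p under 0.05, against 3.54% of all genes, and 0 members were lower, against 2.87%. All 3 lesional libraries were above all 3 uninvolved ones for 7 members (6.58% of all genes): E2f1, Foxm1, Mcm3, Mcm4, Plk1, Tpx2 and Cenpe. The reverse order was seen for 0 members and 8.18% of all genes. Without mouse 2237 the median was 0.99 and 23 members (4.56% of all genes) were higher at an unadjusted p under 0.05, and without mouse 2275 the median was 0.11 and 0 members (1.78% of all genes) were.

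Over all 5 mice, that is in the same libraries in 1 fit, 45 members had a positive log2 change (49.4% of all genes), with a median of 0.89 and a range of -0.04 to 1.47, against -0.01 over all genes. No member passed the FDR, Plk1 coming closest (adjusted p = 0.0938), and 8 of the 16083 genes did (0.0497%). At an unadjusted p under 0.05, 28 were higher (10.1% of all genes) and 0 lower (11.5% of all genes). That count of 28 was 44 without mouse 2237 (13.9% of all genes), 10 without mouse 2275 (6.32%), 15 without mouse 2392 (7.24%) and 13 without mouse 2465 (6.3%). Of the 46, 11 were higher in lesional skin of every mouse (9.13% of all genes): Top2a, E2f1, Foxm1, Mcm3, Mcm4, Mcm6, Plk1, Tpx2, Cenpe, Cenpf and Prc1. The lead of Mcm6 in mouse 2296 was close to 0 (0.001 on the log2 scale). In at least 4 mice 45 members were higher, against 29.6% of all genes, the exception being Ttk. The same 7 members as in IL-17C+ mice were higher in all 5 lesional libraries than in all 5 uninvolved ones (2.98% of all genes). Without mouse 2237, 22 members passed the FDR, and 7.84% of all genes did. That is the mouse in which most members were lower in lesional skin, so these calls are no independent support. With any other single mouse left out, 0 members passed, and 0 did without mice 2237 and 2296 together. With DESeq2 19 members passed (12.7% of all genes), and without the mouse as a block 6 did (5.54% of all genes): Mki67, E2f1, Foxm1, Plk1, Tpx2 and Cenpe.

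**Figure D2:**
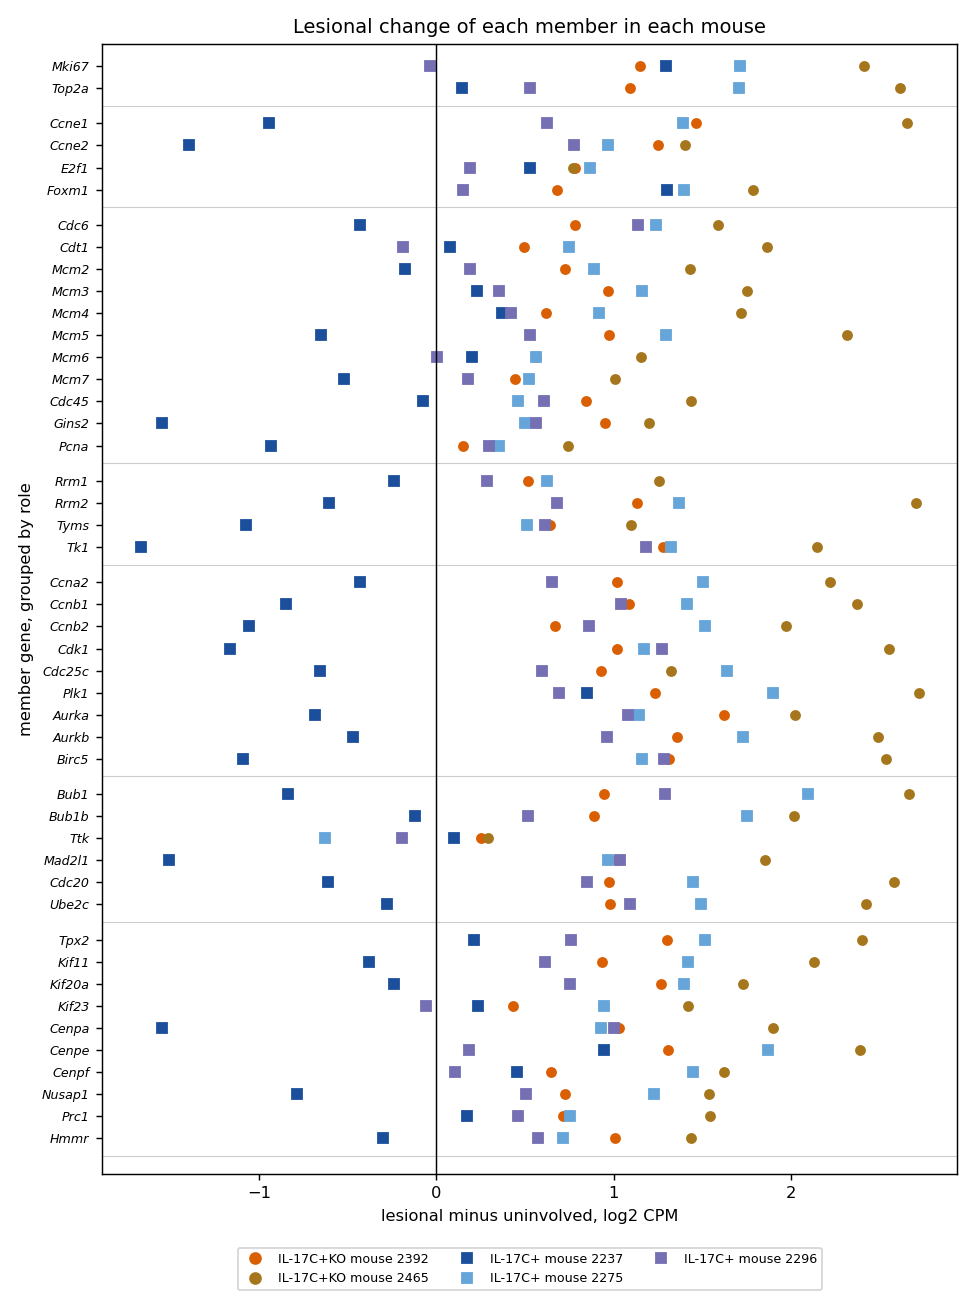
Difference of log2 CPM (lesional minus uninvolved, x axis) for each of the 46 members (y axis, grouped by role) in each mouse; circles are mice labelled IL-17C+KO and squares IL-17C+ mice. All circles lie right of 0, and 31 of the 46 dark blue squares (mouse 2237) lie left of it.

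The proliferation marker Mki67 (chr7:135689784-135716450, GRCm38.p6, minus strand) had 108 and 147 CPM in lesional and 48.6 and 27.5 CPM in uninvolved skin labelled IL-17C+KO, and 142, 128 and 66 CPM in lesional and 57.7, 39.2 and 67.8 CPM in uninvolved IL-17C+ skin. Lesional values exceeded uninvolved ones in 4 mice, and in mouse 2296 they were nearly equal. The fitted log2 change was 1.78 ± 0.52 in mice labelled IL-17C+KO (SE, 2 mice) and 1.0 ± 0.42 in IL-17C+ mice (3 mice), with adjusted p = 0.257 and 0.771 in edgeR. Top2a (chr11:98992947-99024199) had 99.7 and 149.9 CPM in lesional and 46.7 and 24.4 CPM in uninvolved skin labelled IL-17C+KO, and 108, 110.0 and 92.1 CPM in lesional and 97.6, 33.6 and 63.8 CPM in uninvolved IL-17C+ skin. It was higher in the lesional biopsy of each mouse, by only 0.14 on the log2 scale in mouse 2237. Its fitted changes were 1.86 ± 0.53 and 0.79 ± 0.42.

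Among the regulators of entry into S phase and mitosis, Foxm1 (chr6:128362994-128375886), a transcription factor of the G2 and mitosis wave, had 15.8 and 23.5 CPM in lesional and 9.83 and 6.75 CPM in uninvolved skin labelled IL-17C+KO, and 22.9, 22.2 and 11.2 CPM in lesional and 9.24, 8.40 and 10.1 CPM in uninvolved IL-17C+ skin. The lesional range lay above the uninvolved range in both genotypes, and mouse 2237, with 1.30 on the log2 scale, was close to mouse 2275 with 1.40. Its fitted log2 change was 1.24 ± 0.46 in mice labelled IL-17C+KO and 0.96 ± 0.38 in IL-17C+ mice. E2f1 (chr2:154559400-154569892), an activating E2F factor of the S phase wave, had 12.3 and 14.0 CPM in lesional and 7.11 and 8.14 CPM in uninvolved skin labelled IL-17C+KO, and 12.1, 14.0 and 9.61 CPM in lesional and 8.34, 7.61 and 8.43 CPM in uninvolved IL-17C+ skin. It too did not overlap between skin types, with a smaller fitted change over all 5 mice of 0.63 ± 0.19 (adjusted p = 0.131). Ccne2 (chr4:11190433-11204779), a cyclin E that acts with Cdk2 at the start of S phase, had 3.62 and 4.99 CPM in lesional and 1.48 and 1.84 CPM in uninvolved skin labelled IL-17C+KO, and 5.42, 4.67 and 8.67 CPM in lesional and 14.4, 2.35 and 5.03 CPM in uninvolved IL-17C+ skin. Uninvolved skin of mouse 2237 held the highest value, and the change over all 5 mice was 0.64 ± 0.45. Ccne1, the other cyclin E, had the largest fitted change of any member in mice labelled IL-17C+KO, at 2.07 ± 0.62, against 0.37 ± 0.51 in IL-17C+ mice.

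The genes of origin licensing and the replication fork included 11 members: Cdc6 and Cdt1, which load the helicase, its subunits Mcm2 to Mcm7, its activating partners Cdc45 and Gins2, and Pcna. Their summed CPM was 1.47-fold and 2.48-fold higher in lesional skin of the mice labelled IL-17C+KO, with ratios of 0.730, 1.61 and 1.23 in IL-17C+ mice. Mcm3 (chr1:20802966-20820312) had 43.5 and 50.9 CPM in lesional and 22.2 and 15.0 CPM in uninvolved skin labelled IL-17C+KO, and 33.8, 34.4 and 36.1 CPM in lesional and 28.8, 15.3 and 28.3 CPM in uninvolved IL-17C+ skin. Its groups did not overlap, and the change over all 5 mice was 0.89 ± 0.25 (adjusted p = 0.126). Mcm4 (chr16:15623897-15637400) had 43.6 and 59.6 CPM in lesional and 28.3 and 18.1 CPM in uninvolved skin labelled IL-17C+KO, and 41.0, 42.0 and 45.1 CPM in lesional and 31.7, 22.2 and 33.7 CPM in uninvolved IL-17C+ skin. The lowest of the lesional values exceeded the highest of the uninvolved ones, and the fitted change was 0.81 ± 0.23. Pcna (chr2:132249286-132253180) had 104 and 118 CPM in lesional and 93.7 and 70.7 CPM in uninvolved skin labelled IL-17C+KO, and 108, 102 and 124 CPM in lesional and 207, 80.0 and 101 CPM in uninvolved IL-17C+ skin. Here uninvolved skin of mouse 2237 stood above the other 9 libraries, of which the highest had 124 CPM, and the change over all 5 mice was 0.13 ± 0.25.

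Nucleotide supply was represented by Rrm1 and Rrm2, the subunits of ribonucleotide reductase, Tyms, the thymidylate synthase, and Tk1, the thymidine kinase. Rrm2 (chr12:24708254-24714146) had 44.2 and 86.3 CPM in lesional and 20.1 and 13.2 CPM in uninvolved skin labelled IL-17C+KO, and 39.0, 40.6 and 59.4 CPM in lesional and 59.4, 15.7 and 37.0 CPM in uninvolved IL-17C+ skin. The difference was 2.71 on the log2 scale in mouse 2465, whereas mouse 2237 was lower in lesional skin (-0.61). Fitted changes of Rrm2 were 1.92 ± 0.59 in mice labelled IL-17C+KO and 0.49 ± 0.47 in IL-17C+ mice. Rrm1 (chr7:102441695-102469771) had 81.0 and 103 CPM in lesional and 56.5 and 43.3 CPM in uninvolved skin labelled IL-17C+KO, and 81.4, 78.2 and 87.0 CPM in lesional and 96.1, 50.7 and 71.3 CPM in uninvolved IL-17C+ skin, with the same order of mice but a smaller span. Tyms (chr5:30038546-30073645) had 53.0 and 49.7 CPM in lesional and 33.9 and 23.2 CPM in uninvolved skin labelled IL-17C+KO, and 30.1, 34.5 and 45.8 CPM in lesional and 63.4, 24.2 and 29.9 CPM in uninvolved IL-17C+ skin. Its lesional and uninvolved ranges overlapped in IL-17C+ mice, where the fitted change was 0.03 ± 0.39, and its change in mice labelled IL-17C+KO was 0.87 ± 0.46. Tk1 showed the spread between mice, with a log2 difference of 2.15 in mouse 2465 and -1.67 in mouse 2237.

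In the group of mitotic kinases, cyclins and phosphatase (9 members) the summed CPM was 2.15-fold and 5.07-fold higher in lesional skin of the mice labelled IL-17C+KO. The ratios in IL-17C+ mice were 0.592, 2.70 and 1.99. Plk1 (chr7:122159435-122169884), the polo-like kinase that promotes entry into and passage through mitosis, had 18.7 and 32.3 CPM in lesional and 7.91 and 4.84 CPM in uninvolved skin labelled IL-17C+KO, and 20.9, 21.6 and 20.2 CPM in lesional and 11.6, 5.74 and 12.5 CPM in uninvolved IL-17C+ skin. All lesional values lay above all uninvolved ones, and every mouse showed the difference, which was 0.85 on the log2 scale in mouse 2237. Its fitted change was 1.99 ± 0.51 in mice labelled IL-17C+KO, 1.15 ± 0.40 in IL-17C+ mice and 1.47 ± 0.33 over all 5 (adjusted p = 0.236, 0.745 and 0.0938 in edgeR). Aurkb (chr11:69045624-69051664), the kinase of the chromosomal passenger complex, had 20.5 and 26.7 CPM in lesional and 7.96 and 4.68 CPM in uninvolved skin labelled IL-17C+KO, and 24.7, 22.9 and 24.7 CPM in lesional and 34.3, 6.85 and 12.6 CPM in uninvolved IL-17C+ skin. Its uninvolved value in mouse 2237 exceeded every lesional value, and the change over all 5 mice was 1.23 ± 0.41. Ccnb2 (chr9:70407689-70421554), a B-type cyclin that partners Cdk1, had 21.7 and 34.7 CPM in lesional and 13.6 and 8.79 CPM in uninvolved skin labelled IL-17C+KO, and 28.1, 24.1 and 35.1 CPM in lesional and 58.7, 8.40 and 19.3 CPM in uninvolved IL-17C+ skin. Again the uninvolved biopsy of mouse 2237 was highest, and the fitted change was 1.33 ± 0.66 in mice labelled IL-17C+KO and 0.46 ± 0.55 in IL-17C+ mice. The remaining members, Ccna2, Ccnb1, Cdk1, Cdc25c (the phosphatase that activates Cdk1), Aurka and Birc5, had fitted changes of 1.15 (Cdc25c) to 1.94 (Birc5) in mice labelled IL-17C+KO and of 0.47 (Cdk1) to 0.58 (Ccna2) in IL-17C+ mice.

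The spindle checkpoint holds back the anaphase-promoting complex until chromosomes are attached. Ube2c (chr2:164769929-164772902) had 30.8 and 46.5 CPM in lesional and 15.6 and 8.60 CPM in uninvolved skin labelled IL-17C+KO, and 32.1, 31.5 and 42.9 CPM in lesional and 39.0, 11.2 and 20 CPM in uninvolved IL-17C+ skin. It was higher in lesional skin in 4 mice and lower in mouse 2237 (-0.28 on the log2 scale), with fitted changes of 1.71 ± 0.55 and 0.78 ± 0.45. Bub1b (chr2:118598202-118641592), the checkpoint protein BubR1, had 26.8 and 37.5 CPM in lesional and 14.4 and 9.17 CPM in uninvolved skin labelled IL-17C+KO, and 29.2, 30.4 and 27.4 CPM in lesional and 31.7, 8.96 and 19.1 CPM in uninvolved IL-17C+ skin. Mouse 2237 was again the exception, and the change over all 5 mice was 1.01 ± 0.34. Ttk (chr9:83834651-83872390), the kinase Mps1 that starts checkpoint signalling, had 17.2 and 15.0 CPM in lesional and 14.5 and 12.3 CPM in uninvolved skin labelled IL-17C+KO, and 14.1, 11.2 and 12.3 CPM in lesional and 13.1, 17.4 and 14.1 CPM in uninvolved IL-17C+ skin. Its values overlapped between skin types, the highest was that of uninvolved skin of mouse 2275, and the fitted changes were 0.27 ± 0.32 in mice labelled IL-17C+KO and -0.24 ± 0.26 in IL-17C+ mice. It was the 1 member of the 46 with a negative change over all 5 mice (-0.04 ± 0.20), a sign that turned with scaling by total counts (0.07). Bub1, Mad2l1 and Cdc20 had changes over all 5 mice of 1.27 ± 0.51, 0.73 ± 0.46 and 1.06 ± 0.42.

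Of the 10 members of the spindle, kinetochore and cytokinesis, Cenpe (chr3:135212563-135273540), a kinesin that moves chromosomes to the spindle equator, had 14.1 and 27.1 CPM in lesional and 5.63 and 5.10 CPM in uninvolved skin labelled IL-17C+KO, and 19.6, 20.8 and 11.1 CPM in lesional and 10.1, 5.62 and 9.76 CPM in uninvolved IL-17C+ skin. Lesional values lay above all uninvolved ones, if narrowly in mouse 2296, and the fitted changes were 1.87 ± 0.51 and 1.01 ± 0.41. Tpx2 (chr2:152847964-152895321), which activates Aurka on the spindle, had 33.8 and 50.1 CPM in lesional and 13.7 and 9.40 CPM in uninvolved skin labelled IL-17C+KO, and 35.5, 36.1 and 35.4 CPM in lesional and 30.6, 12.5 and 20.8 CPM in uninvolved IL-17C+ skin. Its fitted change in mice labelled IL-17C+KO (1.86 ± 0.44) had the smallest adjusted p of any member there, and its change over all 5 mice was 1.24 ± 0.32 (adjusted p = 0.114). Cenpa (chr5:30666877-30674837), the histone H3 variant of the centromere, had 24.9 and 35.4 CPM in lesional and 12.1 and 9.44 CPM in uninvolved skin labelled IL-17C+KO, and 28.7, 25.7 and 44.7 CPM in lesional and 84.2, 13.4 and 22.3 CPM in uninvolved IL-17C+ skin. It had 84.2 CPM in uninvolved skin of mouse 2237, the highest value of any library, and the fitted change was 1.47 ± 0.66 in mice labelled IL-17C+KO and 0.17 ± 0.56 in IL-17C+ mice. The kinesins Kif11, Kif20a and Kif23, the microtubule binders Nusap1, Prc1 and Hmmr and the kinetochore protein Cenpf had changes over all 5 mice of 0.59 (Kif23) to 0.99 (Kif20a).

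**Figure D3:**
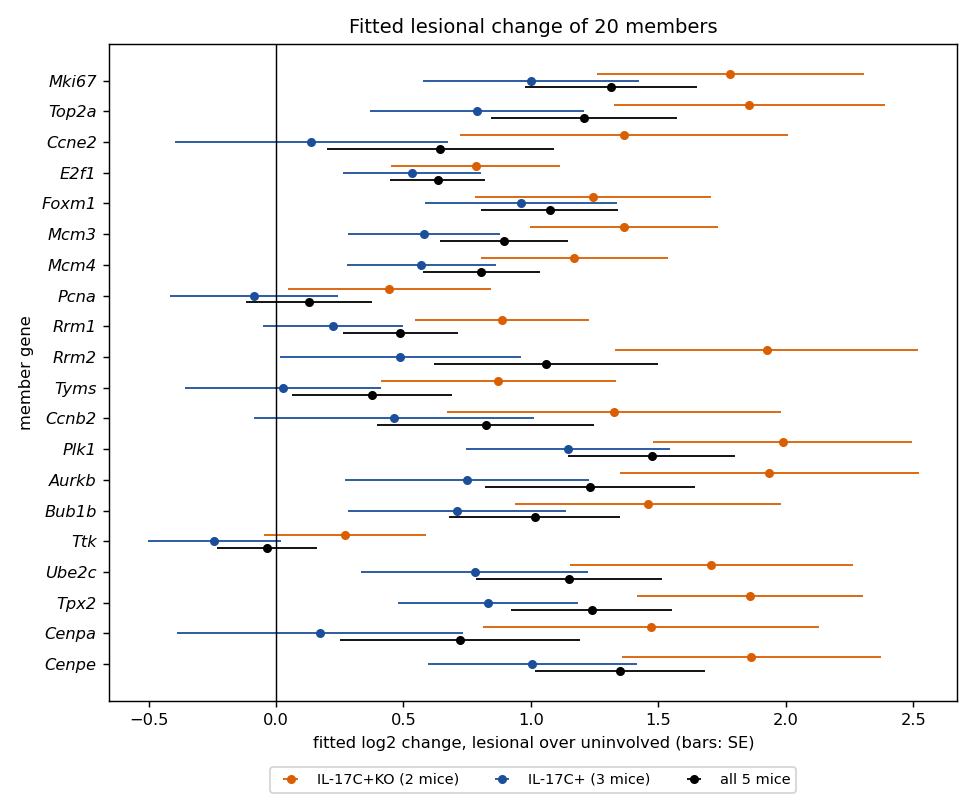
Fitted log2 change (lesional over uninvolved, x axis; bars are 1 SE) of 20 members (y axis) in mice labelled IL-17C+KO, in IL-17C+ mice and over all 5 mice. Plk1 has the largest change over all 5 mice (1.47), and Pcna, Tyms and Ttk lie closest to 0.

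Mouse 2237 differed from the other 4. In it 15 members were higher in lesional skin and 31 were lower, with a median log2 difference of -0.41 and a range of -1.67 (Tk1) to 1.30 (Foxm1). In mice 2392 and 2465 all 46 were higher, with medians of 0.96 and 1.86. In mice 2275 and 2296, 45 and 42 were higher, with medians of 1.23 and 0.60. Of all 16083 genes tested, 49.1% were higher in lesional skin of mouse 2237. In mice 2392, 2465, 2275 and 2296 that share was 48.7, 50.1, 49.8 and 48.5%. Uninvolved skin of mouse 2237 held the highest value of the 10 libraries for 21 members, lesional skin of mouse 2465 for 23, and uninvolved skin of mouse 2465 held the lowest for 36. These extremes were counted for the members only, so the counts do not set the members apart from other genes. The members that were higher in lesional skin of mouse 2237 included Foxm1, Mki67, Cenpe and Plk1, with log2 differences of 1.30, 1.30, 0.95 and 0.85.

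The uninvolved library of this mouse also had the largest excess of short genes and the highest sum of hair follicle genes (below). Genes under 1000 bases there had a median of 0.72 log2 CPM above their mean over the 10 libraries. Genes over 4000 bases had a median of -0.50. The difference of 1.22 compares with 0.55 in lesional skin of mouse 2296 and with -0.40 to -0.04 in the other 8 libraries. The 23 shorter members (up to 3048 bases) had a median lesional difference of -0.66 in mouse 2237, with 4 higher, and the 23 longer ones a median of -0.12, with 11 higher. After each library's length trend was taken out, the median in mouse 2237 was -0.42 with 14 members higher, so the median of this mouse stayed below 0, and Mki67 had a difference of 0.18. Of the 11 members that were higher in lesional skin of every mouse, 8 remained so after this step, and Top2a, Tpx2 and Cenpf turned to -0.42, -0.15 and -0.74 in mouse 2237. Cenpe was close to 0 there (0.04). With Mki67, Cdc45, Ube2c and Kif23, which gained a positive value in every mouse, 12 members were higher in all 5 after the step (10.7% of all genes).

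**Figure D4:**
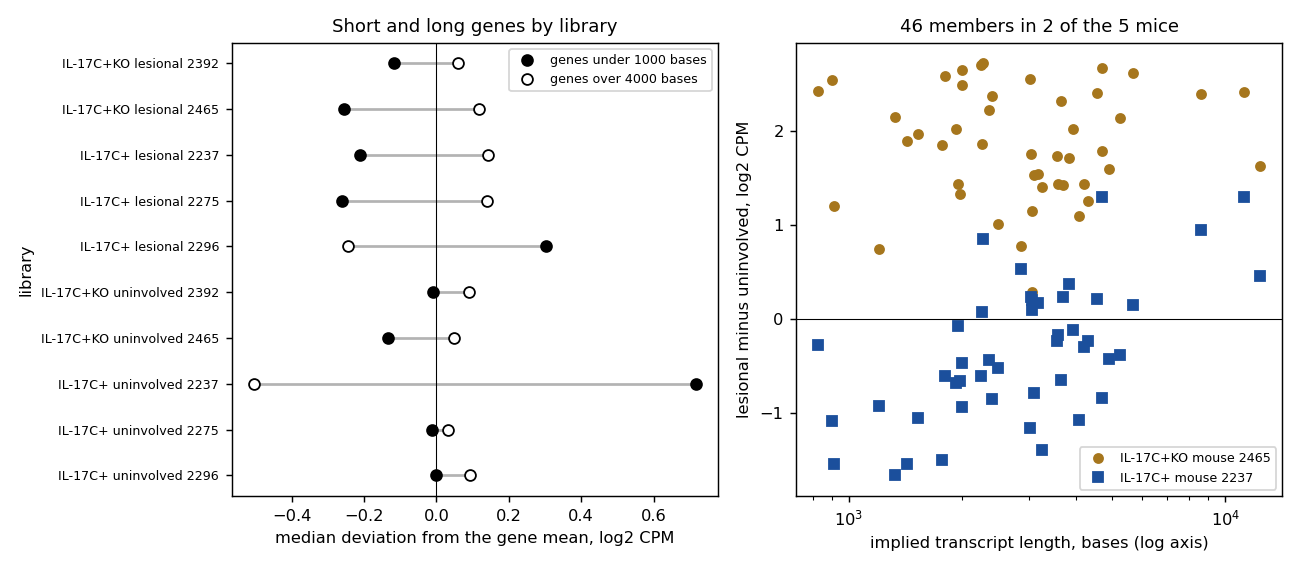
Left, median deviation from the gene mean (log2 CPM, x axis) of genes under 1000 bases (filled) and over 4000 bases (open) in each library (y axis). Right, lesional minus uninvolved log2 CPM of the 46 members (y axis) against transcript length (log x axis) in mouse 2465, where all are above 0, and in mouse 2237, where the 23 shorter members have a median of -0.66 and the 23 longer ones -0.12.

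Of 12 genes of growing hair follicles, all tested, Krt25, Krt27, Krt28, Krt71 and Krt73 are keratins of the inner root sheath, Krt31, Krt35 and Krt85 keratins of the hair shaft, and the others Msx2, Hoxc13, Tchh and Padi3. The 12 summed to 27.0 and 2452 CPM in lesional and 53.0 and 39.7 CPM in uninvolved skin labelled IL-17C+KO. In IL-17C+ mice they summed to 7927, 8779 and 1203 CPM in lesional and 11258, 32.4 and 2216 CPM in uninvolved skin. In uninvolved skin of mouse 2237 the 5 inner root sheath keratins made up 8607 CPM and the other 7 genes 2651 CPM. The hair keratin Krt85 had 0 counts in lesional skin of mouse 2392, and no other gene of the list was at 0 in any library. Uninvolved skin of mouse 2237, with the highest member sum, had the highest hair sum as well. The direction of the hair sum was that of the member sum in mice 2465, 2275 and 2237 and the opposite one in mice 2392 and 2296. In mouse 2392 hair genes were at 27.0 and 53.0 CPM in the lesional and uninvolved biopsies while the members were 1.78-fold higher in the lesional one. How much of the member level came from hair follicles was not tested.

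Other cell type markers differed between the biopsies as well. Basal keratinocyte genes (7 of 7 tested) summed to 10364 and 13946 CPM in lesional and 11368 and 6772 CPM in uninvolved skin labelled IL-17C+KO. In IL-17C+ mice the sums were 8797, 9052 and 12568 CPM in lesional and 5275, 9114 and 12556 CPM in uninvolved skin, the lowest being uninvolved skin of mouse 2237. These sums are mostly Krt5 and Krt14. Over all 5 mice 2 of the 7 genes had a positive fitted log2 change and 5 a negative one (median -0.08). In mouse 2296 Krt14 had a log2 difference of 0.59, and Krt5, Krt15, Col17a1, Itga6, Itgb4 and Trp63 had differences of -1.54 to -0.27. In mouse 2465 Krt14 had 2.25 and Krt15 -2.23. Neutrophil genes (4 of 5 listed were tested) were 5.74-fold and 103-fold higher in lesional skin of mice 2392 and 2465 and had ratios of 1.05, 32.0 and 5.08 in the 3 IL-17C+ mice. That sum is mostly S100a8 and S100a9, which keratinocytes also make. Of the receptors on the list, Csf3r had log2 differences of 3.12 and 3.58, and of 0.69, 1.93 and 3.40, and Cxcr2 of 0.33 and 3.02, and of 0.51, 1.36 and -0.30. Fibroblast genes (4 of 4 tested) had ratios of 2.11 and 5.64, and of 1.45, 4.07 and 1.83, in the same order. Skeletal muscle genes (5 of 5 tested) had ratios of 0.170 and 0.0135, and of 0.994, 0.128 and 0.223. Acta1, Ckm, Tnnt3 and Mylpf were lower in lesional skin of each mouse, whereas Myh4, a fast myosin, was higher in 3, with log2 differences of 0.68 in mouse 2392, 2.99 in mouse 2237 and 0.54 in mouse 2296. None of the genes of these 4 lists was at 0 in any library, and their part in the member levels was not tested.

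The RNA of the transgenic cytokine differed between the biopsies too. Il17c had 2347 and 10881 CPM in lesional and 1901 and 535 CPM in uninvolved skin labelled IL-17C+KO, and 10596, 10855 and 12470.0 CPM in lesional and 15175, 1416 and 5396 CPM in uninvolved IL-17C+ skin. In 4 mice it was higher in lesional skin, with log2 differences of 0.30, 4.35, 2.94 and 1.21 in mice 2392, 2465, 2275 and 2296. Mouse 2237, in which most members were lower in lesional skin, was the 1 mouse in which Il17c was lower there as well (-0.52), and its uninvolved library had the highest Il17c level of the 10. Whether the member levels follow Il17c was not tested.

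The difference of the lesional changes, mice labelled IL-17C+KO minus IL-17C+ mice, was positive for all 46 members (50% of all genes), with a median of 0.87, against 0.00 over all genes. None passed the FDR (0% of all genes), and the smallest adjusted p was 1. None passed an unadjusted p under 0.05 in either direction, where 0.572% of all genes were higher and 0.597% lower. The largest difference was that of Ccne1 (1.70 ± 0.79) and the smallest that of E2f1 (0.25 ± 0.43). For Plk1 the difference was 0.84 ± 0.63 and for Mki67 0.78 ± 0.66. The median was 0.52 without mouse 2237, 0.41 without mouse 2465, and 0.25 with 36 positive members when mice 2237 and 2296 were both left out, which were the mice with a library of short-gene excess. The share of all genes with a positive difference is not given for that last fit.

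Lesional skin of the genotypes was also compared directly. Of the 46 members 37 were higher and 9 lower in libraries labelled IL-17C+KO (50.7% of the 15691 genes tested were higher), with a median log2 difference of 0.16. Mcm3 alone reached an unadjusted p under 0.05 (0.47 ± 0.16, adjusted p = 0.604 in edgeR), against 4.77% of all genes. No member was lower at that level (2.53% of all genes), and no gene passed the FDR (0%) where DESeq2 called 213 genes and no member. Both libraries labelled IL-17C+KO were above all 3 IL-17C+ libraries for Ccne1, Mcm3, Tyms and Ttk (11.7% of all genes), and Cdc6 was below in both (13.3% of all genes). Ccne1 had 22.9 and 23.1 CPM in lesional skin labelled IL-17C+KO, against 11.5, 13.2 and 22.1 CPM in IL-17C+ lesional skin. Without mouse 2465 the median turned to -0.17 and 10 members were higher, and without mouse 2392 it was 0.37 and 44 were higher. The share of all genes that were higher is not given for these fits. Mcm3 missed the unadjusted p of 0.05 without mouse 2237, 2275 or 2465. Markers of other cell types differed in this comparison as well. At an unadjusted p under 0.05, 3 of 3 endothelium genes were higher in libraries labelled IL-17C+KO (median 1.22), as were 1 of 4 fibroblast genes (all 4 positive, median 1.26) and 2 of 7 leukocyte genes tested (3 positive, median -0.21). All 12 hair follicle genes had negative differences, 1 of them at that level (median -2.25). The part of these in the member levels was not tested.

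In uninvolved skin the members lay on the other side. All 46 members were lower in libraries labelled IL-17C+KO (48.9% of the 15568 genes tested were higher), with a median log2 difference of -0.95 and a range of -2.12 (Ccne2) to -0.08 (E2f1). Ccne2, Aurka and Hmmr had an unadjusted p under 0.05 (1.82% of all genes were lower at that level and 1.91% higher), and none passed the FDR (smallest adjusted p = 0.849; 0% of all genes, where DESeq2 called 11 genes and no member). Both libraries labelled IL-17C+KO were below all 3 IL-17C+ libraries for 9 members (10.7% of all genes): Ccne2, Mcm6, Cdc45, Gins2, Aurka, Birc5, Cenpa, Prc1 and Hmmr. For 0 members and 10.4% of all genes they were above. Aurka had 5.10 and 5.64 CPM in uninvolved skin labelled IL-17C+KO, against 24.5, 7.45 and 10.5 CPM in IL-17C+ uninvolved skin. Without mouse 2237 the median was -0.46 and 1 member (0.786% of all genes) was lower at that unadjusted p, and without mouse 2275 the median was -1.23 and 28 members (6.33% of all genes) were. With 1 mouse labelled IL-17C+KO left, 0 members were lower at that p without mouse 2392 (0.492% of all genes) and 0 without mouse 2465 (0.333% of all genes). Beside this, the 12 hair genes were all lower in uninvolved libraries labelled IL-17C+KO with all mice included, at an unadjusted p under 0.05 and with a median of -6.94. Endothelium genes (3 of 3, median 1.04), skeletal muscle genes (5 of 5, median 1.04) and leukocyte genes (6 of 7, median 0.39) had positive differences, with 1 of each list at that unadjusted p. The part of hair follicles and of these cell types was not tested. Age was not tied to mice in the sources used here, so that age and genotype cannot be told apart in these comparisons between mice.

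Beyond the members, 4 further lists of the cell cycle were followed. Of 40 other mitosis genes 23 were higher and 1 was lower at an unadjusted p under 0.05 over all 5 mice (median 0.90), against 10.1% higher and 11.5% lower of all genes, and none passed the FDR. The same shares of all genes stand beside the counts of the other 3 lists below. The lower one was Pttg1, the anaphase inhibitor securin (-0.83 ± 0.25), named after its value was seen. Kif14, a kinesin of cytokinesis, had 7.54 and 12.3 CPM in lesional and 2.32 and 2.11 CPM in uninvolved skin labelled IL-17C+KO, and 8.10, 9.02 and 6.59 CPM in lesional and 6.40, 2.15 and 4.49 CPM in uninvolved IL-17C+ skin, with a change of 1.43 ± 0.38. Its lesional values were all above the uninvolved ones. Incenp, a scaffold of the chromosomal passenger complex, and Cenpn, a kinetochore protein, had changes of 0.87 ± 0.23 and 1.14 ± 0.32. Of 31 other replication genes 7 were higher and 0 lower (median 0.43), with changes of 0.85 ± 0.23 for the histone chaperone subunit Chaf1a, 1.63 ± 0.52 for the replication initiation factor Mcm10 and 1.07 ± 0.36 for Uhrf1, which takes part in copying DNA methylation.

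Among 20 genes listed as G1 cyclins, kinases and other E2F factors, 5 were higher and 1 lower at the same level (median 0.30). That list also holds Cdc25a, Cdc25b, Myc, Mycn, Skp2, Tfdp1 and Mybl2. The higher ones, listed after their values were seen, were Ccnd3, Cdk6, Mybl2, E2f7 and E2f8. E2f7 and E2f8, atypical E2F repressors that are themselves made in S phase, had changes of 1.32 ± 0.30 and 1.20 ± 0.31. E2f7 had 6.90 and 9.32 CPM in lesional and 2.41 and 1.80 CPM in uninvolved skin labelled IL-17C+KO, and 4.18, 4.51 and 4.16 CPM in lesional and 2.35, 1.99 and 2.52 CPM in uninvolved IL-17C+ skin, and its lesional values exceeded all uninvolved ones. E2f6, a repressor that does not bind pocket proteins, went the other way, with 19.2 and 16.5 CPM in lesional and 41.6 and 59.3 CPM in uninvolved skin labelled IL-17C+KO, and 19.7, 17.5 and 21.5 CPM in lesional and 32.9, 63.1 and 25.3 CPM in uninvolved IL-17C+ skin. All lesional values of E2f6 were below all uninvolved ones, and its change was -1.16 ± 0.28 (adjusted p = 0.105 in edgeR). Of 14 genes listed as CDK inhibitors and pocket proteins, 1 was higher and 1 lower (median -0.07). That list also holds Trp53, Wee1, Pkmyt1 and Fzr1.

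Cdkn1c, the inhibitor p57 that restrains cyclin-dependent kinases, had 6.37 and 10.2 CPM in lesional and 15.1 and 21.6 CPM in uninvolved skin labelled IL-17C+KO, and 11, 12.8 and 9.57 CPM in lesional and 18.9, 19.2 and 12.6 CPM in uninvolved IL-17C+ skin. It was lower in the lesional biopsy of each of the 5 mice, with a change of -0.82 ± 0.19 (adjusted p = 0.102). Cdkn2a, the locus of p16 and p19Arf, had 0.490 and 1.69 CPM in lesional and 0.358 and 0.0384 CPM in uninvolved skin labelled IL-17C+KO, and 4.39, 4.67 and 6.47 CPM in lesional and 4.75, 0.319 and 2.42 CPM in uninvolved IL-17C+ skin, and its fitted change of 1.83 ± 0.76 includes a library with 1 count, uninvolved skin of mouse 2465. Wee1, the kinase that holds Cdk1 inactive, had a change of -0.74 ± 0.33 and was higher in lesional skin of mouse 2237.

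**Figure D5:**
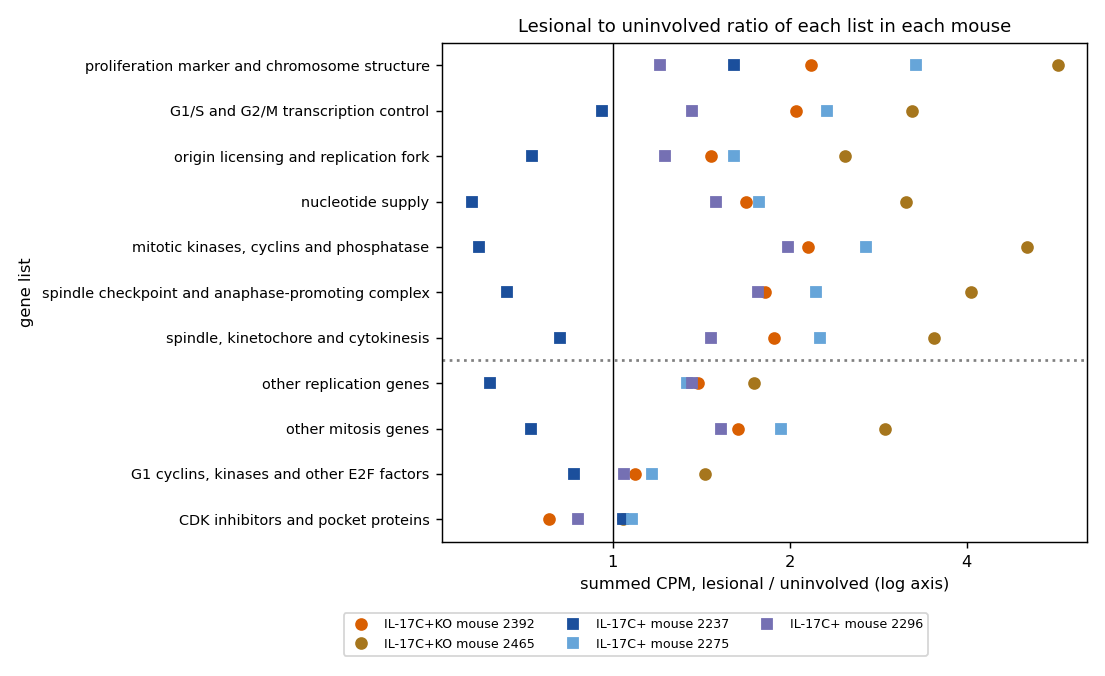
Ratio of summed CPM, lesional over uninvolved (log x axis), for the 7 role groups of the members (above the dotted line) and 4 further cell cycle lists (y axis) in each mouse; circles are mice labelled IL-17C+KO and squares IL-17C+ mice. The ratio of mitotic kinases, cyclins and phosphatase was 5.07 in mouse 2465 and 0.592 in mouse 2237, and that of CDK inhibitors and pocket proteins stayed between 0.780 and 1.08. Cdkn1a was the largest part of the latter sum in each library. It made up 331 of 800 CPM in uninvolved skin of mouse 2237 and 565 of 949 CPM in that of mouse 2296.

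The shares of the roles in the member sum also differed between biopsies. Licensing and fork genes made up 28.5 and 26.1% of the member sum in lesional skin labelled IL-17C+KO, against 34.5 and 36.7% in its uninvolved skin. In IL-17C+ mice they made up 27.2, 26.9 and 26.8% in lesional skin, against 28.3, 35.4 and 31.9% in uninvolved skin, so that each of the 5 lesional biopsies had the lower share. Mki67 and Top2a together made up 13.9 and 14.5% in lesional skin labelled IL-17C+KO, against 11.3 and 8.82% in its uninvolved skin. In IL-17C+ mice their share was 15.8, 15.7 and 9.46% in lesional skin, against 7.45, 10.1 and 11.5% in uninvolved skin, higher in mice 2237 and 2275 and lower in mouse 2296. These shares are of CPM, to which long and abundant transcripts add most, and no test was run on them. Mki67 (11211 bases) and Top2a (5698 bases) are long, and the libraries differ in their length trend. Uninvolved skin of mouse 2237 and lesional skin of mouse 2296 had an excess of short genes (1.22 and 0.55 log2 CPM over long ones). The part of transcript length in the shares was not tested.

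Overlapping genes limit some members, since the sources used here do not give the strand setting of the counting. In GENCODE M21 annotation 10 of the 46 share exon bases with another gene of the count tables, 9 of them with genes on the opposite strand only. Counted as the longest overlap of a pair of exons, Gins2 shares 2758 bases with Gse1, Kif20a 977 with Cdc23, Prc1 670 with Rccd1 and Ccne2 474 with Ints8. Ube2c shares 144 bases with Tnnc2, a troponin of skeletal muscle. Mcm7 holds Mir25 and Mir93 on its own strand.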

How the data were processed

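RNA was sequenced from 10 skin biopsies of 5 mice. Per the submitters' processing notes, the authors used cutadapt 1.6, TopHat2 2.0.12, HTSeq, Cufflinks 2.2.1 and the mm10 build, and they deposited read counts per gene symbol and FPKM values. The sources used here give no settings, strand included. Libraries held 21056850 to 31072491 counts, and the limit of 3 counts covers counting error only. Replicates are biopsies of different mice.

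The deposited counts were scaled by TMM, filtered with filterByExpr and tested with edgeR 4.0.16 (robust quasi-likelihood F test, Benjamini-Hochberg adjustment over all genes tested, FDR 0.05) in R 4.3.3. Lesional and uninvolved biopsies carry the same mouse number in the labels, so the mouse was a block. Deviations of the 2 biopsies of a mouse correlated at -0.072 (2392 and 2465), -0.122 (2237), 0.034 (2275) and -0.070 (2296). The shared value of mice 2392 and 2465 is not 2 separate checks. These correlations do not show the biopsies of a mouse to be alike, and the block rests on the labels. The difference of the lesional changes was an interaction term. Genotypes were compared within each skin type. CPM values are TMM-scaled, and per-mouse log2 differences use a prior count of 2. The fit was tested on simulated counts.

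Alternatives were DESeq2 size factors, total counts, no filter, DESeq2 1.42.0, limma-voom 3.58.1, leaving out each mouse and, in comparisons of skin types, leaving out the block. Offsets for transcript length and leaving out mice 2237 and 2296 together were added after seeing the data. Values in every library are given for Mki67, Top2a and, per role, the 2 members with the smallest and the 1 with the largest p over all 5 mice. Further lists give up to 3 genes by smallest p. The members' names and the further lists were chosen with earlier results of these data known. No column of another series was used.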

Additional observations from a re-analysis of the deposited data

Results flagged for a closer look

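In 6 of the 46 members, the lesional minus uninvolved difference of mouse 2237 lay far below those of the other 4 mice. The criterion was Dixon's 95% critical value for 5 samples (0.71), which chance passes in about 1 in 20 groups. Of all 16083 genes tested, 2.43% had mouse 2237 far below the others, and 6.72% had any mouse far below or above. The log2 CPM differences in mouse 2237 were -1.39 for Ccne2, the S phase cyclin, -1.55 for Gins2, a helicase subunit, and -1.07 for Tyms, the thymidylate synthase. They were -1.67 for Tk1, the thymidine kinase, -1.51 for Mad2l1, a checkpoint protein, and -1.55 for Cenpa, the centromeric histone. In the other 4 mice all 6 genes were higher in lesional skin, by 0.78 to 1.40 for Ccne2 and by 1.19 to 2.15 for Tk1. The uninvolved library of mouse 2237 is also the one with the highest hair gene sum and the largest excess of short genes.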

How the results depend on the processing

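The direction of the members' median was the same under every alternative run in 5 of the 6 comparisons. The exception was lesional skin between genotypes, where leaving out mice gave -0.17 (without 2465) to 0.37 (without 2392). All members had counts in all libraries, down to 33 for Ccne2 in uninvolved skin of mouse 2392, and a limit by depth was not tested. Leaving out mouse 2392 or 2465 leaves 1 mouse labelled IL-17C+KO, assumed to vary like the others. The cause of the shifts below was not tested.

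In mice labelled IL-17C+KO, 2 genes passed the FDR. That number was 1 with total counts, 5 without a filter, 1157 with DESeq2, 0 without the replicate block, 5 with either length offset, 0 without mice 2237 and 2296, and 0 to 11 with a mouse left out. DESeq2 called 19 members. In IL-17C+ mice 0 genes passed and DESeq2 called 247. Over all 5 mice 8 genes passed, against 15 without a filter, 2036 with DESeq2, 4 with limma-voom, 891 without the block, 31 without both mice and 0 to 1249 with a mouse left out. Members called there were 19 with DESeq2, 6 without the block and 0 to 22 with a mouse left out. For the difference of the changes DESeq2 called 6 genes. Between genotypes in lesional skin, 1 gene passed without a filter and 213 with DESeq2. In uninvolved skin 11 passed with DESeq2, and 0 to 241 with a mouse left out, the highest without mouse 2275. Members lower there at an unadjusted p under 0.05 were 28 without mouse 2275 (6.33% of all genes), against 3 with all mice (1.82%).

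With total counts the summed CPM in lesional IL-17C+ skin was 54.5 for transcription control and 282 for the spindle group, and the members' median in mice labelled IL-17C+KO was 1.51. With the bases before the start alone, a CHR, and a CHR with a CCAAT box, were each found in 12 members.

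Changes of sign occurred in genes with small changes. In IL-17C+ mice Pcna had 0.017 with total counts, 0.068 and 0.046 with length offsets, 0.33 without both mice, and -0.31 to 0.33 with a mouse left out. Ccne2 had -0.039 with limma-voom, -0.21 without the block, and -0.32 to 0.89 with a mouse left out. Tyms had -0.092 without the block, -0.022 with the implied length offset, and -0.27 to 0.56 with a mouse left out. Cenpa had -0.27 without the block and -0.30 to 0.97 with a mouse left out, and Ccnb2 -0.098 to 1.19. Over all 5 mice Ttk had 0.072 with total counts and -0.12 to 0.10 with a mouse left out, and Pcna -0.026 to 0.39. Of the other values of single genes, 933 kept direction and side of the threshold, and 54 passed it with the same direction.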

Other observations

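Of 5 suprabasal and wound keratinocyte markers, 4 had a positive change in lesional skin over all 5 mice. Over all 5 mice the stress keratins Krt6a, Krt6b and Krt16 had log2 changes of 2.90 ± 0.55, 3.80 ± 0.70 and 2.46 ± 0.71 (adjusted p = 0.0763, 0.0721 and 0.130 in edgeR). At an unadjusted p under 0.05, 3 of the 5 genes of the list were higher (10.1% of all genes) and 0 lower (11.5% of all genes). Of 7 basal keratinocyte genes, Krt14 was higher (0.91 ± 0.33) and Krt15, a keratin of resting basal cells and the hair bulge, lower (-1.04 ± 0.32) at that level. None of these passed the FDR. The genes were picked after their values were seen.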
